A study of Rattus norvegicus with 27 samples.

Results

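The genes described here encode 5 proteins of the myelin sheath: Mbp (myelin basic protein), Pmp22 (peripheral myelin protein 22), Pmp2 (the P2 protein), Mal (the myelin and lymphocyte protein) and Cnp (2′,3′-cyclic nucleotide 3′-phosphodiesterase). They were chosen by gene name from the gene count table of cell RNA, in which 5 of 17315 genes carried these names, and 5 of 5 passed the filter on low counts that kept 10372 genes for testing. The vesicle libraries of the study are of microRNA and long noncoding RNA, and their tables held 0 entries for these genes. All values are therefore from cells, and the 0 does not tell whether vesicles carry these mRNAs. The study cultured purchased primary rat Schwann cells at 3 stages, with 3 libraries per stage that the titles call biological replicates. Undifferentiated cells were kept without dibutyryl cyclic AMP (dbcAMP), a form of cyclic AMP that enters cells. Differentiated cells had 72 h of 1 mM dbcAMP in DMEM with little serum, after a night of starvation in the same base medium. Dedifferentiated cells had the same 72 h of dbcAMP and then 72 h without it, in a complete medium with more serum, forskolin and neuregulin. The medium of the undifferentiated cells at harvest is not given beyond the absence of dbcAMP, so that dbcAMP, serum, the growth factors and time in culture cannot be told apart. The cells were a purchased stock of low passage, grown on coated plates without axons, and the labels do not say whether the replicates came from separate animals or lots. The p-values below therefore measure the spread between these libraries.

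Schwann cells wrap the axons of peripheral nerves, and cyclic AMP signalling is used in culture to raise genes of the myelinating programme without axons. Compact myelin is a stack of membrane in which the cytoplasmic faces and the outer faces are pressed together. Mbp and Pmp2 lie on the cytoplasmic face, Pmp2 being a fatty acid binding protein that holds 2 bilayers together. Pmp22 is a membrane protein with several passes, whose gene dosage matters in inherited neuropathies, and Mal is a small membrane protein of lipid-rich domains that takes part in sorting cargo to myelin. Cnp is an enzyme tethered to membrane that is found mostly in the regions of myelin with cytoplasm, and it is expressed in Schwann cells before they myelinate. The 5 genes are not one family, and no transcript lengths were given, so levels are compared between stages and not between genes.

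The total per library was 10058732 to 16212282 estimated counts over 11278 to 11831 detected genes. Levels are given as CPM, a gene's counts scaled to the total of its library, and 3 counts corresponded to 0.185 to 0.298 CPM. Replicate 1 stood apart at each stage: the chi-square per degree of freedom between its counts and those of replicates 2 and 3 was 20.9 to 26.5, against 5.22 to 14.0 between replicates 2 and 3. Values without replicate 1 are therefore given beside the results on the 5 genes, an alternative chosen after seeing the data. Replicate 3 carries another sequencing project number in the labels than replicates 1 and 2, so values within the first project are given as well; the second project holds 1 library per stage. The labelled cell type was checked with marker genes. All 9 of the Schwann lineage markers in the table lay above 3 counts in every library, with summed levels of 8644 to 9526 CPM in undifferentiated, 6139 to 6527 CPM in differentiated and 11084 to 11523 CPM in dedifferentiated cells. The sum does not follow each of its genes. With dbcAMP 3 of the 9 were called higher and 6 lower, against 31.7% and 27.9% of all tested genes. After withdrawal 8 were called higher and 1 lower, against 23.2% each way. Of the markers of oligodendrocytes, which make several of the same proteins in the brain, Mobp, Olig2 and Sox17 were at 0 in every library, and the 7 genes summed to 0.589 to 1.54 CPM. Neuron markers summed to at most 0.678 CPM. The fibroblast list summed to 15766 to 19721 CPM, 5425 to 7703 CPM and 9917 to 12872 CPM at the 3 stages in order, nearly all of it Col1a1, while Lum was at 0 in every library and Col3a1 had means of 53.2, 92.0 and 147 CPM. The pericyte list summed to 124 to 154 CPM, 542 to 809.5 CPM and 323 to 346 CPM, mostly Pdgfrb, while Rgs5 was at 0 and Acta2 had means of 3.16, 0.199 and 7.30 CPM. The endothelial list summed to 1.21 to 3.08 CPM, 6.78 to 9.11 CPM and 11.9 to 22.5 CPM. Its Cdh5 was at 0 in every library, while Vwf had means of 0, 0.919 and 10.1 CPM. Tek was at most 2.21 CPM before dbcAMP and had means of 6.61 CPM with it and 5.23 CPM after it. Pecam1 and Kdr were at most 0.673 CPM in any library. The macrophage list summed to at most 5.09 CPM with Aif1 at 0. Its Cd68 had means of 0.724, 3.41 and 1.36 CPM, and Csf1r of 0, 0.710 and 0.718 CPM. Ptprc, Itgam and Cd163 were at most 0.677 CPM in any library. The melanocyte list summed to 13.9 to 17.2 CPM, 27.9 to 46.9 CPM and 22.8 to 40.6 CPM; its Tyrp1 was at 0 before dbcAMP and had means of 23.2 CPM with it and 0.195 CPM after it. These sums moved with stage, and their part in the results below was not tested. In bulk RNA, fewer cells of a type and less RNA per cell cannot be told apart.

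Of the 5 members 4 had a promoter entry in the RefSeq table, all but Pmp2. The sequences shown are those of the 3 with a single start site in that table, and start sites it does not list are not covered. These genes are Mal, which was near 0 in undifferentiated cells, Pmp22, which moved at each step, and Cnp, which was abundant at every stage. Each sequence is the 250 bases before the listed start site, 5′ to 3′ on the gene's strand, from RefSeq on build GRCr8. The Pmp22 window is chr10:48294682-48294931 on the plus strand, the Mal window chr3:135341424-135341673 on the minus strand and the Cnp window chr10:86011254-86011503 on the plus strand. The build behind the count table is not given in the sources used here, and these windows do not depend on it. Capitals mark a match to a searched motif.
Mal: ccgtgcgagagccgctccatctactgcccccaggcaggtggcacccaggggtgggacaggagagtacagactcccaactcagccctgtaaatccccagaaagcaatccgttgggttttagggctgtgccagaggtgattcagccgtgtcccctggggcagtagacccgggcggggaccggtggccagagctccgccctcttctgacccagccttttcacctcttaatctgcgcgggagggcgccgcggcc
Pmp22: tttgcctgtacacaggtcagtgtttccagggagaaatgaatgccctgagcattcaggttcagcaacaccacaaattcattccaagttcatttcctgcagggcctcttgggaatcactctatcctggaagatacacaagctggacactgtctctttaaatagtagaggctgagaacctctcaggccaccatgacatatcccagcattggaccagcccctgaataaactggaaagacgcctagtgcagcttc
Cnp: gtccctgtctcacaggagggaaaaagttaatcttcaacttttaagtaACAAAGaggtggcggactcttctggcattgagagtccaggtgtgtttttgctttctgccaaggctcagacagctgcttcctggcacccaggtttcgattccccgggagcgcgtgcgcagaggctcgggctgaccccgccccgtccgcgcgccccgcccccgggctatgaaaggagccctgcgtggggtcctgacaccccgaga
Both strands were searched for 5 motifs: an EGR type site (GCGNGGGCG), a SOX type site (ACAAAG), the POU octamer (ATGCAAAT), the core of the cyclic AMP response element (TGACG) and the TATA box (TATAAA). No searched motif overlapped another match in these 3 windows. The Mal and Pmp22 windows held no match, and the Cnp window held 1 SOX type match on the plus strand, 203 bases before the start. Over 33469 windows of the same length, 16.3% held the SOX type site, 4.29% the EGR type site, 1.56% the octamer, 18.2% the response element core and 12.9% the TATA box. A match to 6 letters is a description and not a binding site, and a window without one says only that these letters are not in it. The windows also differed in base composition: G and C made up 64.8% of the Mal window, 60.4% of the Cnp window and 48% of the Pmp22 window, against a median of 51.2% over all windows. Mbp had 2 start sites in the table, one of which is known to give the Golli transcripts, and the count table sums over both; the response element core was found once in one of its windows and the SOX type site once in the other.

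Mal was the member nearest to absence in undifferentiated cells. Its level there was 0.322, 0.192 and 0.0654 CPM in replicates 1, 2 and 3, which are 4, 2 and 1 counts. Differentiated cells had 797, 476 and 585 CPM, and dedifferentiated cells 1046, 662 and 641 CPM. Only the undifferentiated libraries stood apart, since the ranges of the later stages overlapped. Pmp2 was also low at the start, with 4.51, 12.4 and 17.7 CPM. It reached 2002, 1197 and 1349 CPM in differentiated cells and then stood at 532, 444 and 423 CPM in dedifferentiated cells. No Pmp2 ranges overlapped between stages, and the order was undifferentiated, dedifferentiated, differentiated.

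Mbp and Pmp22 were already expressed before dbcAMP. Mbp had 248, 154 and 132 CPM in undifferentiated, 4256, 2270 and 1938 CPM in differentiated and 5404, 2968 and 2697 CPM in dedifferentiated cells. Replicate 1 had the highest Mbp level at every stage, and the ranges of the differentiated and dedifferentiated libraries overlapped. Pmp22 had 462.5, 942 and 936 CPM in undifferentiated cells, where replicate 1 was the lowest. It had 3628, 2445 and 2557 CPM in differentiated cells and 7249, 5405 and 5194 CPM in dedifferentiated cells, where replicate 1 was the highest. The 3 Pmp22 ranges did not overlap, and the level was higher at each successive stage. Cnp had 2040, 2044 and 2035 CPM in undifferentiated, 2593, 2339 and 2332 CPM in differentiated and 2427, 2368 and 2307 CPM in dedifferentiated cells. The lowest and the highest Cnp library therefore differed far less than those of any other member. Together the 5 genes took 0.276% to 0.315% of all counts in undifferentiated cells, 0.873% to 1.33% in differentiated cells and 1.13% to 1.67% in dedifferentiated cells.

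**Figure D1:**
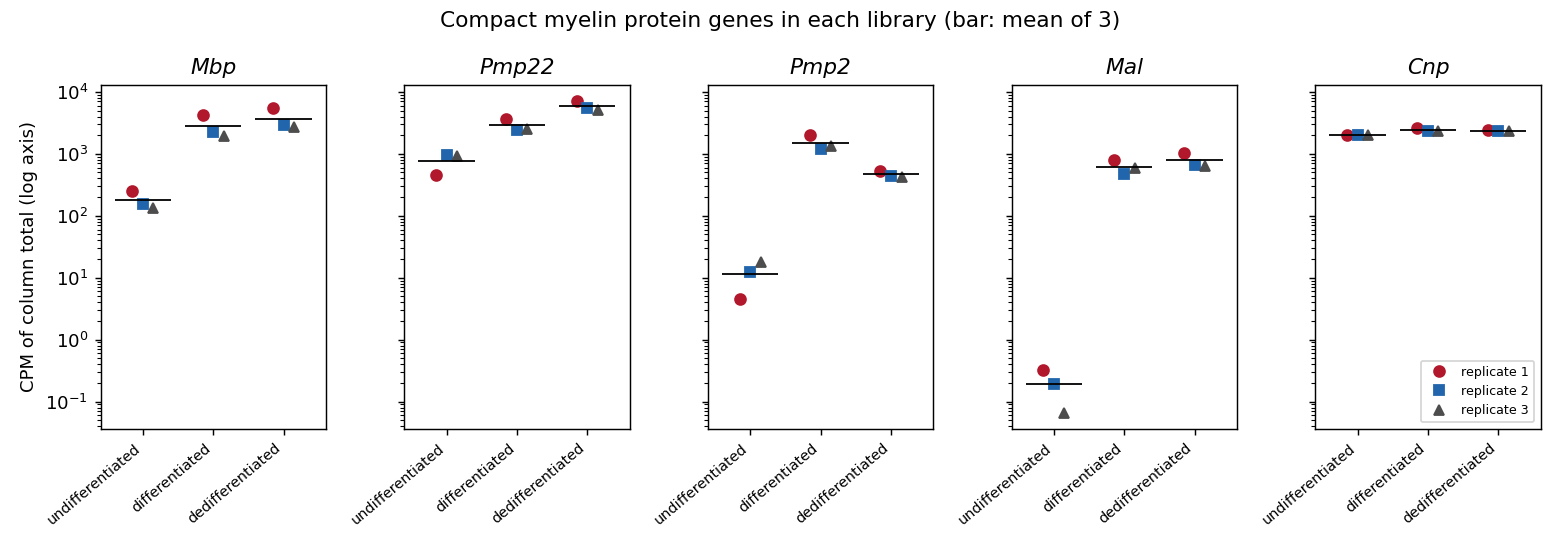
Level of each gene in each library, as CPM of the library total on a log axis, by stage; symbols are replicates and bars are means of 3 libraries. Mal lies below 1 CPM in the 3 undifferentiated libraries and above 400 CPM in the others, Pmp2 is highest in differentiated cells, Pmp22 is highest in dedifferentiated cells, and Cnp stays between 2035 and 2593 CPM.

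The first comparison asked how the genes differed after 72 h of dbcAMP. Mbp, Pmp22, Pmp2 and Mal rose in differentiated cells, and Cnp did not pass the test. Pmp2 rose from 11.5 ± 6.62 to 1516 ± 428 CPM (SD, n = 3 libraries each). The change was 6.98 on the log2 scale (SE 0.418), or 126-fold, with an adjusted p of 2.19e-07 by edgeR's quasi-likelihood test with Benjamini-Hochberg adjustment over all 10372 genes, the test used throughout. Without replicate 1, in which Pmp2 was lowest before dbcAMP, it was 6.29, or 78.4-fold. Mbp rose from 178 ± 61.6 to 2821 ± 1253 CPM, a log2 change of 3.93 (SE 0.409, 15.2-fold, edgeR adjusted p = 1.34e-05). Pmp22 rose from 780 ± 275 to 2877 ± 653 CPM, a log2 change of 1.83 (SE 0.265, 3.56-fold, edgeR adjusted p = 0.000152). For Mal the pooled counts were 7 in undifferentiated and 26468 in differentiated cells, a ratio of 3370 per count of library total with an exact 95% interval of 1635 to 8382 that covers counting error only. The fitted log2 change of Mal was 11.59 (SE 0.444, edgeR adjusted p = 1.05e-08), and it was 12.22 without undifferentiated replicate 1, which held 4 of the 7 counts.

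Cnp was 2039 ± 4.51 CPM before and 2421 ± 149 CPM after dbcAMP, a log2 difference of 0.19 with a 95% interval of -0.01 to 0.38 and an edgeR adjusted p of 0.0925. Its 3 differentiated libraries lay above the 3 undifferentiated ones, so that the libraries did not overlap although the test was not passed. With library size as the only scaling the difference was 0.25 and passed (edgeR adjusted p = 0.0224). Of the 5 members 4 were called higher, against 31.7% of all tested genes called higher, 27.9% called lower and 59.6% in either direction. The ranges of 5 of 5 did not overlap, which also held for 66.3% of all tested genes. The median log2 change was 3.93 over the members and 0.05 over all tested genes. Without replicate 1 the changes were 3.79 for Mbp, 1.32 for Pmp22, 11.95 for Mal and 0.11 for Cnp, and the same 4 genes were called. Within the first project they were 3.95 for Mbp, 2.05 for Pmp22, 7.52 for Pmp2, 11.12 for Mal and 0.20 for Cnp, with the same 4 called.

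The second comparison asked what became of these levels 72 h after dbcAMP was withdrawn and the medium changed. The members went different ways: Pmp2 fell, Pmp22 rose, and Mbp, Mal and Cnp did not pass the test. The calls of Mbp and Mal depended on the model. With the replicate number as a block, Mbp rose by 0.41 (edgeR adjusted p = 0.00304) and Mal by 0.34 (edgeR adjusted p = 0.0173) on the log2 scale. The labels do not say that libraries of the same number share a culture. Pmp2 fell from 1516 ± 428 to 466 ± 58.0 CPM, which is 3.23-fold lower (log2 change -1.69, SE 0.322, edgeR adjusted p = 0.00163). Pmp22 rose from 2877 ± 653 to 5950 ± 1131 CPM, a log2 change of 1.06 (SE 0.26, 2.08-fold, edgeR adjusted p = 0.00704). Within the first project Pmp22 changed by 1.07 with an edgeR adjusted p of 0.0618, so that its call was lost there with 2 libraries per stage. Mbp was 2821 ± 1253 and then 3689 ± 1491 CPM, a log2 difference of 0.40 with a 95% interval of -0.41 to 1.20 (edgeR adjusted p = 0.394). Mal was 619 ± 163 and then 783 ± 228 CPM, a log2 difference of 0.35 with an interval of -0.15 to 0.85 (edgeR adjusted p = 0.228). Cnp differed by -0.02 with an interval of -0.22 to 0.18 (edgeR adjusted p = 0.867).

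Leaving out replicate 1 changed which members were called in this comparison. Its Mbp level was 4256 CPM in differentiated and 5404 CPM in dedifferentiated cells, above all libraries of replicates 2 and 3 at either stage. Without replicate 1 at each stage, 4 members were called: Mbp rose by 0.46 (edgeR adjusted p = 0.00366), Mal rose by 0.33 (0.0142), Pmp22 rose by 1.12 and Pmp2 fell by 1.52 on the log2 scale. Cnp then differed by 0.04 and was not called. In all 9 libraries 1 member was called higher and 1 lower, against 23.2% of all tested genes called in each direction and 46.4% in either. The ranges of 2 of the 5 members did not overlap, against 58.5% of all tested genes. The median log2 difference was 0.35 over the members and -0.01 over all tested genes. Within the first project the differences were 0.37 for Mbp, -1.70 for Pmp2 (edgeR adjusted p = 0.0193), 0.43 for Mal and -0.03 for Cnp, so that Pmp2 alone was called there.

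The third comparison set the dedifferentiated cells against the cells that had not received dbcAMP. Here too Mbp, Pmp22, Pmp2 and Mal were higher and Cnp did not pass the test. This comparison shares its libraries with the others, so its values are given side by side and not as further evidence. Mbp was 4.32 higher on the log2 scale (SE 0.417, 20-fold, edgeR adjusted p = 3.16e-05). Pmp22 was 2.89 higher (SE 0.276, 7.42-fold, edgeR adjusted p = 2.92e-05). Pmp2 was 5.29 higher (SE 0.392, 39-fold, edgeR adjusted p = 6.09e-06), although it had fallen after withdrawal. Mal held 27513 pooled counts against 7, a ratio of 4260 with an exact 95% interval of 2067 to 10596. Its fitted log2 change was 11.94 (SE 0.444, edgeR adjusted p = 1.31e-07), and 12.57 without undifferentiated replicate 1. Cnp was 0.17 higher with an interval of -0.03 to 0.36 and an edgeR adjusted p of 0.188. The 4 genes called higher compare with 16.1% of all tested genes called higher, 13.3% called lower and 29.4% in either direction, and the ranges of 5 of 5 members did not overlap against 43.9% of all tested genes. Without replicate 1 the values were 4.26 for Mbp, 2.44 for Pmp22, 4.77 for Pmp2, 12.28 for Mal and 0.14 for Cnp. Within the first project they were 4.32, 3.12, 5.81, 11.55 and 0.17 in the same order. The same 4 genes were called in both.

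**Figure D2:**
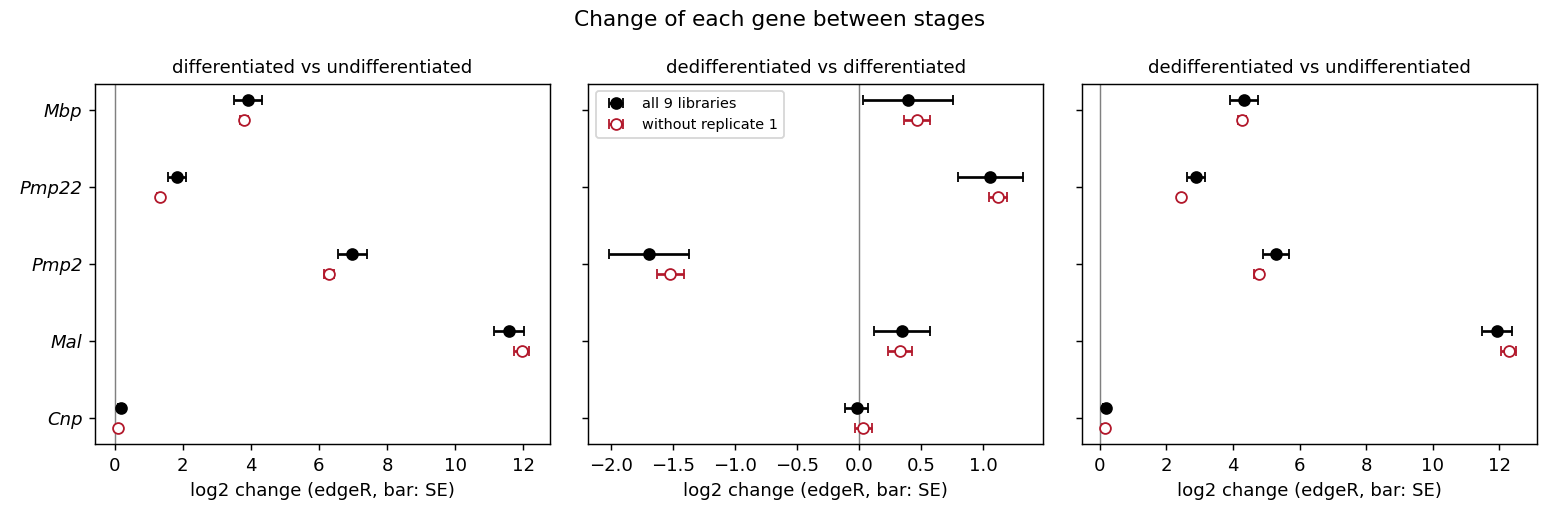
Log2 change of each gene between stages, from the edgeR fit to all 9 libraries (filled) and to 6 libraries without replicate 1 (open); bars are standard errors and the horizontal axes differ. Pmp2 lies at -1.69 and Pmp22 at 1.06 for dedifferentiated against differentiated cells, and Cnp lies within 0.25 of 0 in all 3 panels.

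Ratios between genes within a library do not depend on how libraries are scaled, so they show directly whether the members kept their proportions. They were computed as log2 ratios of counts and tested over the 3 stages by an exact permutation test of the F statistic, with 280 assignments, a smallest possible p of 0.00357 and adjustment over 10 pairs. All 10 pairs differed between stages at an adjusted p under 0.05, with values from 0.00714 to 0.0321. These pairs are drawn from 5 genes and restate their changes, and how many other gene pairs would pass was not tested. Pairs with Mal also rest on its 1 to 4 counts per undifferentiated library. The log2 ratio of Pmp22 to Pmp2 was 6.67, 6.24 and 5.72 in undifferentiated, 0.86, 1.03 and 0.92 in differentiated and 3.77, 3.61 and 3.62 in dedifferentiated cells (exact permutation adjusted p = 0.00714). The 3 stages did not overlap in this ratio, and replicate 1 lay close to the others after dbcAMP, although its levels of both genes were the highest there. The log2 ratio of Pmp2 to Mal was 1.33, 1.33 and 1.21 in differentiated cells and -0.98, -0.58 and -0.60 in dedifferentiated cells (exact permutation adjusted p = 0.00714 over the stages).

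The log2 ratio of Mbp to Mal was 2.42, 2.25 and 1.73 in differentiated and 2.37, 2.17 and 2.07 in dedifferentiated cells, which overlapped, and the difference of the means was 0.07. The difference of this ratio between stages (exact permutation adjusted p = 0.0321) was that from undifferentiated cells, where it was 9.42, 9.32 and 10.39. Against Cnp, the least variable member, Pmp22 had a log2 ratio of -2.14, -1.12 and -1.12, then 0.48, 0.06 and 0.13, then 1.58, 1.19 and 1.17 in the same order of stages and replicates. Pmp2 against Cnp went from a mean of -7.67 to -0.71 and then to -2.35. The ratio of Mbp to Pmp22 went from a mean of -2.11 to -0.09 and then to -0.74 (exact permutation adjusted p = 0.0134). Leaving out single libraries cost it the call over the 3 stages in 3 of 9 cases. The exact permutation adjusted p over the stages was 0.0571 without differentiated replicate 1. It was 0.0536 without differentiated replicate 2, and also without dedifferentiated replicate 2. The withdrawal differences of this ratio, not tested on their own, were -0.49, -0.66 and -0.59 in that order. With 2 libraries per stage, as without replicate 1 or within the first project, this permutation test could not pass, so only the values by library are given.

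**Figure D3:**
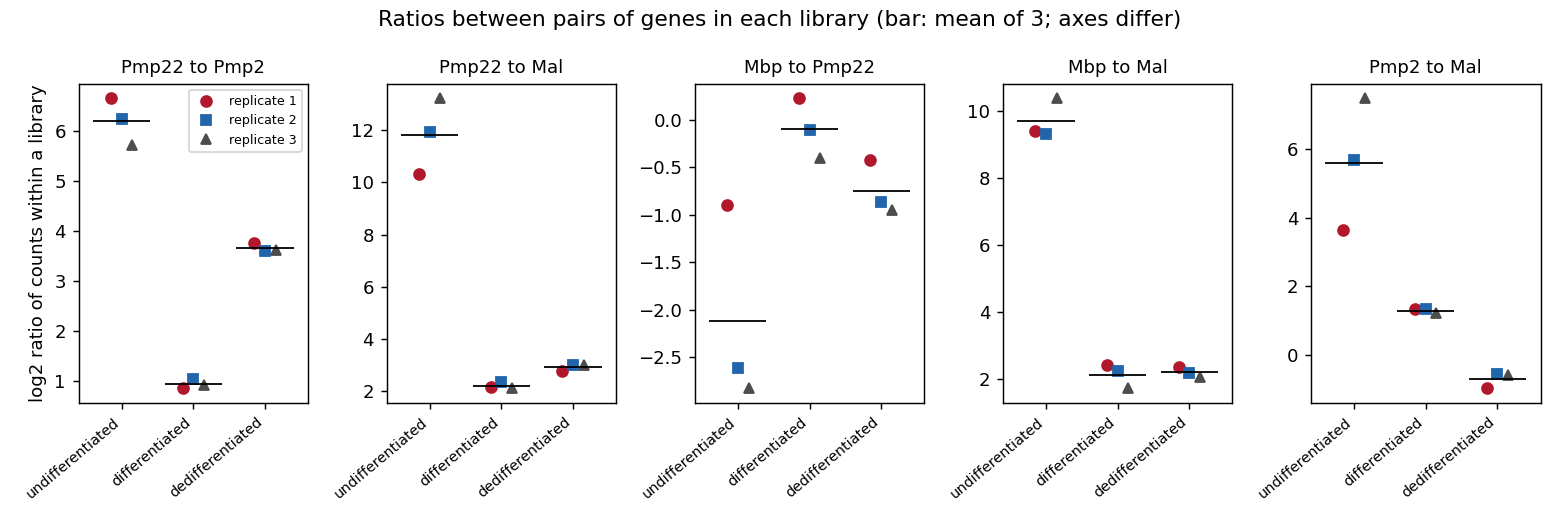
Log2 ratio of counts of pairs of genes within each library, by stage; symbols are replicates, bars are means of 3 libraries, and the vertical axes differ. Pmp22 to Pmp2 takes separate values at the 3 stages, with means of 6.21, 0.94 and 3.66, while Mbp to Mal overlaps between differentiated and dedifferentiated cells.

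Several relatives of the members were measured, which shows how far the pattern of a member held in its gene family. Pmp22 belongs with the epithelial membrane proteins, small proteins with the same membrane topology. Emp1 fell from 1114 ± 89.4 to 177 ± 22.3 CPM in differentiated cells (log2 change -2.72, edgeR adjusted p = 6.61e-08) and rose to 893 ± 130 CPM after withdrawal (2.34, adjusted p = 5.02e-07). Emp3 fell by 1.06 and rose by 0.94, and Tmem47 fell by 3.00 and rose by 2.44 on the log2 scale. Emp2 rose by 1.25 with dbcAMP and fell by 0.47 after it, a fall whose edgeR adjusted p was 0.0622 within the first project. Of the 4 tested relatives 3 were thus lower in differentiated cells, where Pmp22 was higher, and 3 were higher after withdrawal, as Pmp22 was. Among all tested genes 27.9% were called lower with dbcAMP and 23.2% higher after withdrawal. Lim2 and Perp did not pass the filter.

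Pmp2 belongs to the fatty acid binding proteins, carriers of lipids in the cytoplasm, of which 3 of 14 listed relatives were tested. Fabp5, which lies next to Pmp2 in the RefSeq gene order, had 108 ± 39 CPM, then 152 ± 8.15 CPM, then 95.1 ± 26.5 CPM. It was not called with dbcAMP (log2 difference 0.43, edgeR adjusted p = 0.161), but without undifferentiated replicate 1, its highest library before dbcAMP, it rose by 0.79 (edgeR adjusted p = 0.00477). It fell by 0.67 after withdrawal with an adjusted p of 0.0494, a call that was lost when undifferentiated replicate 2, any differentiated replicate, or dedifferentiated replicate 1 or 3 was left out, with adjusted p from 0.0554 to 0.16. Crabp2, a carrier of retinoic acid, fell by 3.41 with dbcAMP and rose by 1.77 after it on the log2 scale, from 77.8 to 7.68 and then 26.1 CPM. Crabp1 was at most 2.18 CPM in any library, and its fall after withdrawal (-2.39, edgeR adjusted p = 0.031) was lost when any differentiated replicate, or dedifferentiated replicate 1 or 3, was left out, with adjusted p from 0.0502 to 0.0956. Fabp9 and Fabp4, the neighbours of Pmp2 on its other side, did not pass the filter.

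Mal belongs to the MARVEL proteins, of which 8 of 12 listed were tested. Plasmolipin (Pllp), a myelin proteolipid, had the same kind of rise as Mal, from 0.909 ± 0.544 CPM to 334 ± 29.8 CPM and then 205 ± 66.0 CPM. Its fall of 0.69 after withdrawal (edgeR adjusted p = 0.0223) lost its call without differentiated replicate 1 or 2 or dedifferentiated replicate 2 or 3, with adjusted p from 0.0556 to 0.0923. Cmtm8 went the other way, with log2 changes of -3.70 and 3.27, and Cmtm7 fell by 2.02 and rose by 0.84. Cmtm8 was low throughout, with means of 3.33, 0.258 and 2.58 CPM. Its changes depend on 3 to 4 counts per differentiated library. Cmtm6 rose by 0.94 with dbcAMP and Cmtm4 by 0.93, and neither was called after withdrawal. In all, 4 of 8 were called higher and 3 lower with dbcAMP, against 31.7% and 27.9% of all tested genes. After withdrawal 2 were called higher and 2 lower, against 23.2% of all tested genes each way. The lower ones were Pllp and Marveld1, and in 4 of the fits with 1 library left out both of these calls were lost. Mall, next to Mal in the gene order, did not pass the filter. Of the distant relatives of Cnp, Usb1 rose by 0.95 with dbcAMP and Akap7 was not called (0.53, edgeR adjusted p = 0.0806), while without undifferentiated replicate 3 it rose by 0.80 (0.0199).

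A list of 22 other myelin sheath genes, 21 of them tested, shows the members beside the rest of the sheath. With dbcAMP 18 of 21 rose and 2 fell, with a median log2 change of 2.24. After withdrawal 7 rose, 6 fell and 8 were not called, with a median of -0.20; without replicate 1 the counts were 8 and 9, and within the first project 3 were called lower. Over all tested genes 31.7% were called higher and 27.9% lower with dbcAMP, and 23.2% each way after withdrawal, so that calls in both directions after withdrawal were usual. Prx, the periaxin that links the sheath to its basal lamina, had 24.6 ± 6.50 CPM, then 3769 ± 757 CPM and 2533 ± 810 CPM. Its log2 difference after withdrawal was not called in all libraries (-0.56, edgeR adjusted p = 0.077) but was without dedifferentiated replicate 1 (-0.85, 0.00986) and without replicate 1 at each stage (-0.65, 0.000114). Genes that fell after withdrawal as Pmp2 did were Cldn19, a tight junction protein of Schwann cells, from 615 ± 153 to 224 ± 73.5 CPM (-1.45, edgeR adjusted p = 0.000599), Bcas1, from 475 ± 75.5 to 204 ± 37.6 CPM, and Gal3st1, the sulfatide synthesis enzyme, from 101 ± 16.7 to 55.9 ± 7.63 CPM.

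Nfasc, an adhesion protein of nodes and paranodes, had 0.145 ± 0.128 CPM, then 2.45 ± 0.837 CPM and then 66.0 ± 39.3 CPM. Its log2 change after withdrawal was 4.78 (edgeR adjusted p = 1.47e-05), and 4.17 without dedifferentiated replicate 1, where it was highest. Ncmap, a protein of non-compact myelin, had 0.192 ± 0.333 CPM, then 0.770 ± 0.325 CPM and then 26.8 ± 8.65 CPM, a log2 change of 5.09 after withdrawal (edgeR adjusted p = 1.78e-05). Drp2, a partner of periaxin, had 23.6 ± 12.3 CPM in differentiated and 90.5 ± 47.1 CPM in dedifferentiated cells, after at most 0.161 CPM in undifferentiated ones. Gjb1, the connexin of myelin gaps, had at most 0.0961 CPM before dbcAMP, 46.5 ± 12.9 CPM with it and 33.4 ± 9.22 CPM after it. The 2 genes that fell with dbcAMP were Tspan2, a tetraspanin, by 5.23 on the log2 scale, and Cadm4, an adhesion protein of the internode, by 0.44. Both rose after withdrawal, by 4.19 and 0.63. Tspan2 had means of 9.68, 0.263 and 4.85 CPM at the 3 stages in order. Its differentiated libraries held 3 to 4 counts each, and both of its changes depend on these.

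**Figure D4:**
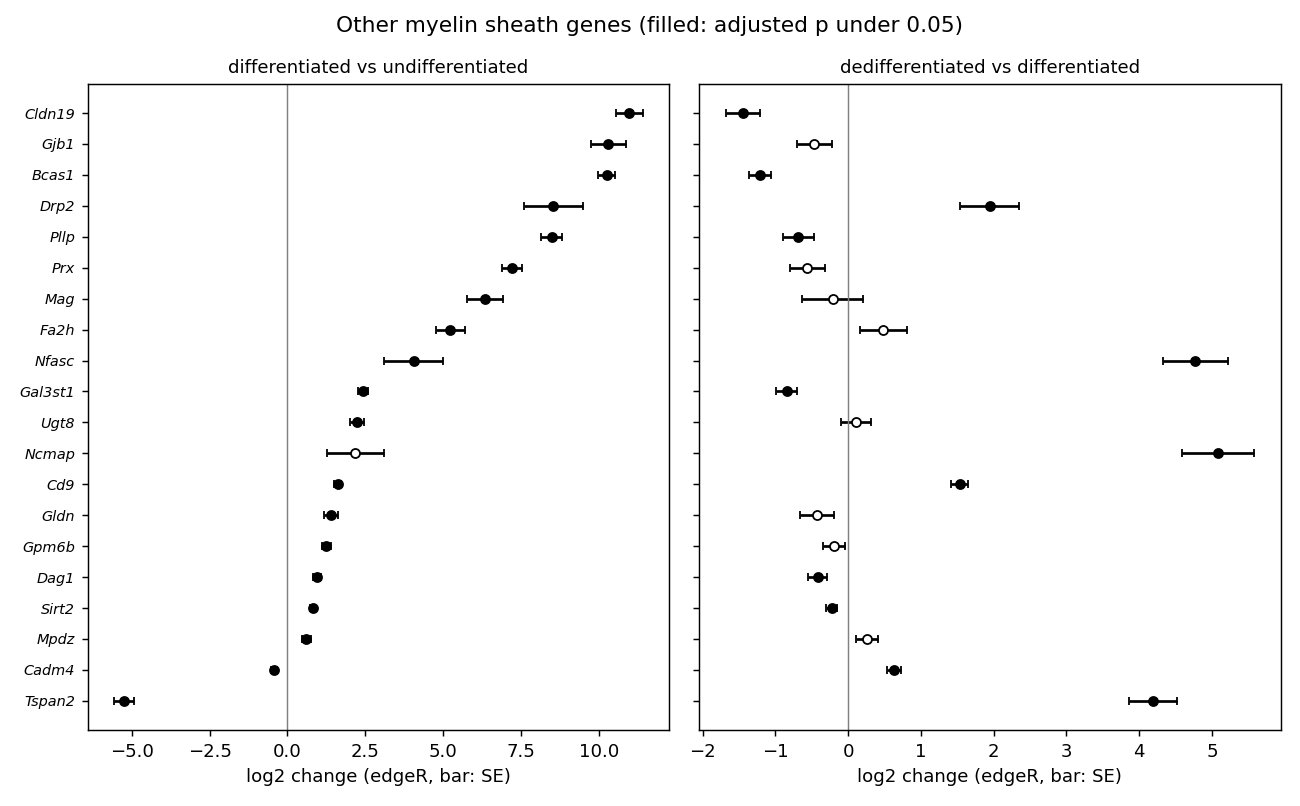
Log2 change of 20 of the 21 tested other myelin sheath genes with dbcAMP (left) and after its withdrawal (right), from the edgeR fit to 9 libraries; bars are standard errors, filled points passed an adjusted p of 0.05, and the axes differ. Most points lie to the right of 0 on the left and on both sides of 0 on the right. The left-hand values of Cldn19, Gjb1, Bcas1, Drp2, Nfasc and Ncmap start from levels near 3 counts per library and depend on them. Tspan2 had 3 to 4 counts per differentiated library, on which its values in both panels depend.

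The regulators listed for these genes included factors that activate the myelin programme and factors that oppose it. Of 22 tested, 11 rose and 9 fell with dbcAMP, and 8 rose and 9 fell after withdrawal. Over all tested genes the shares were 31.7% higher and 27.9% lower with dbcAMP, and 23.2% each way after withdrawal. Egr2, a transcription factor needed for peripheral myelin, had 6.01 ± 6.98 CPM, then 703 ± 84.4 CPM and then 129 ± 40.7 CPM. Its log2 change with dbcAMP was 6.90 (edgeR adjusted p = 4.09e-06), and 8.33 without undifferentiated replicate 2, where it was highest before dbcAMP; after withdrawal it fell by 2.43 (edgeR adjusted p = 0.00185). Pou3f1, which acts before Egr2 in development, had 6.04 ± 2.41 CPM, then 1526 ± 194 CPM and then 179 ± 30.6 CPM, with log2 changes of 7.93 and -3.08. After withdrawal the mean levels of both factors lay between those of the other 2 stages, as for Pmp2. The means of Mbp, Pmp22 and Mal did not, but the differentiated and dedifferentiated libraries of Mbp and Mal overlapped. Whether the levels of these factors and of the members are linked was not tested. Nab2, a corepressor that binds Egr proteins, had 2.50 to 24.2 CPM, then 77.8 to 139 CPM and then 75.6 to 98.6 CPM. In dedifferentiated against undifferentiated cells it was 3.00 higher on the log2 scale, and 4.59 without undifferentiated replicate 1, while within the first project it was not called (edgeR adjusted p = 0.0584). Id2, an inhibitor of helix-loop-helix factors, rose from 7.90 ± 5.65 to 292 ± 35.8 CPM and fell to 44.3 ± 7.72 CPM.

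Jun, Sox2 and Nfatc4 fell with dbcAMP and rose after withdrawal. Jun, a factor induced in Schwann cells after nerve injury, fell from 2378 ± 420 to 242 ± 35.7 CPM (log2 change -3.36, edgeR adjusted p = 6.56e-08) and returned to 2052 ± 172 CPM (3.10, edgeR adjusted p = 3.29e-07). Sox2 fell by 1.94 and rose by 1.66 on the log2 scale, and Nfatc4, a calcium-regulated factor, fell by 2.56 and rose by 1.68. Id4 and Notch1, both linked to the immature state, did not follow them: the log2 changes were 2.40 and -1.86 for Id4 (adjusted p by edgeR 5.96e-07 and 8.14e-06) and 0.67 and -0.99 for Notch1 (0.0026 and 0.000335). Sox10, which is required throughout the Schwann lineage, had 1252 to 1480 CPM, 964 to 1110 CPM and 1325 to 1539 CPM at the 3 stages, with log2 changes of -0.42 and 0.49 that were not called within the first project (edgeR adjusted p = 0.0551 and 0.0831). Yap1 and Zeb2 were lower in dedifferentiated than in undifferentiated cells, by -0.77 and -0.62 (edgeR adjusted p = 7.94e-05 and 0.000531). In dedifferentiated cells Jun and Sox2 did not pass the test against undifferentiated cells (log2 differences -0.26 and -0.28, edgeR adjusted p = 0.228 and 0.459), that of Sox2 being 0.12 without undifferentiated replicate 1, while Mbp, Pmp22, Pmp2 and Mal were higher than at the undifferentiated stage. Whether one is linked to the other was not tested.

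Genes that handle the RNA or protein of the members were listed as well. Of 8 tested, 4 rose and 2 fell with dbcAMP, and 3 fell after withdrawal, when the other 5 were not called. Among all tested genes 31.7% were called higher and 27.9% lower with dbcAMP, and 23.2% lower after withdrawal. The median log2 changes of the 8 were 0.19 and -0.11, against 0.05 and -0.01 over all tested genes. Qk, an RNA-binding protein that acts on Mbp transcripts, rose from 157 ± 6.37 to 424 ± 32.2 CPM (1.37, edgeR adjusted p = 2.2e-06) and fell to a mean of 234 CPM (-0.85, edgeR adjusted p = 0.00014). Canx, the chaperone of newly made Pmp22, rose by 0.53 and fell by 0.33, a fall that was not called within the first project (edgeR adjusted p = 0.139). Fyn, a kinase that acts on Mbp translation in oligodendrocytes, rose by 0.71. Of the 5 tested genes typical of oligodendrocyte myelin, 3 rose and 1 fell with dbcAMP, beside the same shares over all tested genes. Without replicate 1, 2 rose, and Cldn11, at most 1.78 CPM in any library, was not called. Mag, an adhesion protein that Schwann cells also make, rose from 4.08 ± 2.93 to 342 ± 187 CPM, a log2 change of 6.35 that was 5.29 without replicate 1. Aspa rose by 2.01, and Myrf, the oligodendrocyte myelin regulator, fell by 0.95.

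Across the 9 libraries the members resembled one another to different degrees. Pearson's r of log2 CPM, which reflects mainly the 3 stages and shared library scaling, was 0.984 between Mbp and Mal, 0.949 between Pmp2 and Mal, 0.83 between Pmp22 and Pmp2 and 0.753 between Pmp22 and Cnp. The 3 genes most like each member were picked by the same r. Those of Mbp included Atp1b3 (0.992) and Pik3r1 (0.990). Those of Pmp22 included Mtus1 (0.996) and Elmo1 (0.991), which both rose at both steps; Elmo1 had 3.33 ± 1.07 CPM, then 27.5 ± 10.4 CPM and 57.0 ± 18.6 CPM. For Pmp2 they were Filip1, Epb41l4b and Dgat2 (0.997, 0.997 and 0.996). Dgat2, an enzyme of triglyceride synthesis, had 1.78 ± 0.469 CPM, then 50.5 ± 4.27 CPM and 24.8 ± 3.79 CPM. For Mal they were Dusp15, Pnlip and Chp2 (0.999, 0.998 and 0.997). Dusp15, a phosphatase, had 0.291 ± 0.0304 CPM, then 192 ± 77.0 CPM and 193 ± 42.3 CPM, while Pnlip and Chp2 were at 0 in the undifferentiated libraries. For Cnp they were Mapk8ip1 (0.969), Slc22a17 (0.968) and Dynll1 (0.962), and these had higher levels with dbcAMP than before it, by 0.53, 0.45 and 0.45 on the log2 scale. The call was lost within the first project for all 3. It was also lost for Mapk8ip1 without differentiated replicate 1 or undifferentiated replicate 2 or 3 (edgeR adjusted p from 0.051 to 0.0586), and for Dynll1 without these or dedifferentiated replicate 2 (from 0.0507 to 0.116).

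The genes beside the members on the chromosome, by the RefSeq order, were mostly below the filter. Mrps5, next to Mal, differed by 0.22 with dbcAMP (edgeR adjusted p = 0.0667, and 0.0465 without undifferentiated replicate 2). Acly, near Cnp, encodes the enzyme that makes acetyl-CoA for lipid synthesis; it rose by 1.06 and then fell by 0.68. Zfp516, near Mbp, differed by 0.19 with dbcAMP (edgeR adjusted p = 0.253) and fell by 0.73 after it. Dnajc7 and Nkiras2, on the other side of Cnp, differed by 0.07 and 0.10 with dbcAMP and were not called (edgeR adjusted p = 0.558 and 0.405). Pag1, beyond Fabp5 from Pmp2, rose by 0.94 with dbcAMP (edgeR adjusted p = 0.0176), a call lost without differentiated replicate 2 (0.0672). The 4 nearest genes to Pmp22 did not pass the filter.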

How the data were processed

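The cell RNA values are estimated counts per gene from salmon, deposited by the authors, per the name of the table. Libraries were made with a directional kit, per the labels' protocols, and the submitters' processing notes also name STAR, HISAT2 and DESeq2 1.26.0 without roles. The genome build and annotation are not given in the sources used here. All counts were rounded to whole numbers, since 1.15% had a fraction. Replicate numbers are those of the sample titles, which disagree with suffixes in the column names. The 9 libraries were fitted together with edgeR 4.0.16 in R 4.3.3 (quasi-likelihood test, TMM scaling, filterByExpr with a minimum count of 10, no covariates), and the threshold for a call was 0.05 on the p adjusted by Benjamini-Hochberg. Standard errors are the log2 change divided by the square root of F. Ratios used a prior count of 0.5, and likeness used log2 CPM with a prior count of 2. Both the fit and the ratio test were tested on simulated data. The members, lists and alternatives were chosen with earlier results of these data known. All 5 members were named in every comparison. Of each list, up to 3 rising and 3 falling called genes with the largest change were named, with every tested relative of a member allowed; Prx, Sox10, Id4, Notch1, the neighbouring genes and named genes in further comparisons were chosen after their values were seen. The vesicle libraries were not analysed here, and some genes are counted in the lists but not reported by name. Alternatives were the replicate number as a block, sequencing project as a covariate or alone, DESeq2 1.42.0 (size factors and Wald test), library size alone, no filter, the 10 most abundant genes left out, and each library left out.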

Additional observations from a re-analysis of the deposited data

How the results depend on the processing

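Of 3403 values recomputed under the alternatives, 3233 kept their direction and their side of the threshold (or, for counts, stayed within 1.5 times), 7 changed sign and the others lost or gained a call or moved further. Replicate numbers do not say that libraries share a culture. Deviations from the stage means correlated between same-numbered libraries by 0.18 on average, with 7 of 9 pairs over 0.1, and 8 of 9 libraries were most like one of their own number. With the replicate number as a block, 6325, 5031 and 3256 genes were called in the 3 comparisons in order, against 6179, 4809 and 3045 without it. After withdrawal 4 members were then called, with Mbp at 0.41 (edgeR adjusted p = 0.00304) and Mal at 0.34 (0.0173). The ratio of Mbp to Mal had an exact permutation adjusted p of 0.111 over the 3 stages with this block. Its withdrawal difference of 0.07 was not tested on its own. With library size alone, Cnp passed in differentiated against undifferentiated cells at 0.25. Within the first project 2606 genes and 1 member were called after withdrawal, with Pmp22 at 1.07, and 1283 genes in dedifferentiated against undifferentiated cells. Without replicate 1 at each stage, 4 members were called after withdrawal, with Mbp at 0.46, Mal at 0.33 and Cnp at 0.04. Leaving out single libraries left 2 members called after withdrawal, and moved Mbp there between 0.022 and 0.84, Mal between 0.091 and 0.59, Cnp between -0.055 and 0.044, the ratio of Mbp to Mal between -0.13 and 0.21, and Sox2 in dedifferentiated against undifferentiated cells between -0.47 and 0.12 (0.11 without replicate 1 at each stage). Between 9 and 10 pairs of members kept an adjusted p under 0.05 in these fits. The causes were not tested. Mal in undifferentiated cells rests on 1 to 4 counts per library.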
